A study of Homo sapiens with 6 samples.

Results

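The 10 genes described here are common transcriptional targets of YAP and TAZ: ANKRD1, CCN1, CCN2, FJX1, FOXF2, AXL, AJUBA, CRIM1, PTPN14 and NT5E. They were taken by symbol from a table of 58884 listed genes, and each symbol matched 1 row. RNA was sequenced from HEK293FT cells, a human embryonic kidney line that carries the SV40 large T antigen, after 72 h in supernatant with secreted ISLR (3 libraries, titled ISLR) or in supernatant from empty-vector controls (3 libraries, titled NC). ISLR is a secreted leucine-rich repeat protein. The titles number the libraries 1 to 3 within each group, without saying whether they came from separate cultures, so a p-value here measures only the spread between these libraries.

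YAP and TAZ (gene WWTR1) are coactivators that bind DNA through TEAD transcription factors. The Hippo kinase LATS, which acts downstream of the kinase MST, phosphorylates them and keeps them out of the nucleus. Stiff substrate, low cell density and serum release them. CCN1, CCN2 and ANKRD1 are the targets most often read as a measure of their activity, and several targets, such as AJUBA, PTPN14, LATS2 and AMOTL2, act back on the pathway.

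The ISLR transcript went against the titles. Its row held 0, 0.02 and 0 TPM for the ISLR titles, against 510.3, 555.4 and 535.1 TPM for the NC titles. Groups are therefore named by their labels, and each direction given would turn if the labels were exchanged. Supernatant is the treatment described, and where the ISLR transcript in these libraries came from was not tested. Depth is unknown, because TPM (transcript abundance corrected for gene length and scaled to a fixed total) keeps no record of it. Of the 9 markers of the HEK293 line, 9 averaged at least 1 TPM, with sums of 1546 to 1606 TPM in ISLR-labelled libraries and 1398 to 1423 TPM in NC-labelled ones. VIM held most of these sums, at 1116 to 1260 TPM over the 6 libraries. The 8 markers of fibroblasts and stroma summed to 13.7 to 14.9 TPM in ISLR-labelled libraries and 11.8 to 16.9 TPM in NC-labelled ones. COL1A1 held most of that sum, and THY1 was at 0 in all 6 libraries. The 4 blood markers summed to at most 0.29 TPM, with CD3E and HBB at 0. Mitochondrially encoded mRNA took 3.98 ± 0.156% of TPM in ISLR-labelled libraries and 2.82 ± 0.0361% in NC-labelled ones (SD, n = 3 each). Mitochondrial rRNA took 1.14 ± 0.0324% in ISLR-labelled libraries and 1.6 ± 0.0397% in NC-labelled ones, and ribosomal protein genes took 31.4 ± 0.141% in ISLR-labelled libraries and 33.4 ± 0.149% in NC-labelled ones. Genes at 1 TPM or more numbered 14004 to 14092 in ISLR-labelled libraries and 13365 to 13470 in NC-labelled ones. The part of these shifts in the results below was not tested. In bulk RNA, fewer cells of a type and less RNA per cell cannot be told apart.

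The promoter sequences at hand were searched for the DNA word that TEAD factors read. RefSeq promoters (GRCh38.p14) were found for 8 of the 10 genes, at 10 start sites, and the 250 bases before each start were searched on both strands. CCN1 and CRIM1 had no promoter entry and were not searched. The TEAD motif was GGAATG, whose other strand reads CATTCC. The AP-1 motif was TGANTCA, and the CArG box of serum response factor was searched as well. The motifs do not overlap in these windows. GGAATG was present before 6 of the 10 starts, in 6 of the 8 genes, and before 11.9% of all 35116 promoters. Before the start of CCN2 it occurred 3 times, which 0.0826% of all promoters reached, and before that of ANKRD1 it occurred 2 times, which 0.94% reached. The stretches around the matches are shown 5′ to 3′ on the strand of the gene, with the motifs in capitals. In ANKRD1 the first stretch also holds an AP-1 match at its end, TGATTCA, which 6.57% of all promoters have in some form. No CArG box was found in these windows, and 1.16% of all promoters have one.

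ANKRD1, chr10:90921276-90921337, minus strand: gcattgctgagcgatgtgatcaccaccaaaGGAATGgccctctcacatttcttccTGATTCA
ANKRD1, chr10:90921198-90921227, minus strand: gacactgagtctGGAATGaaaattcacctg
CCN2, chr6:131951433-131951552, minus strand: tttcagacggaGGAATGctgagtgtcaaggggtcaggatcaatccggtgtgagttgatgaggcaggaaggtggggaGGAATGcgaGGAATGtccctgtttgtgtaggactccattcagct
FOXF2, chr6:1389351-1389430, plus strand: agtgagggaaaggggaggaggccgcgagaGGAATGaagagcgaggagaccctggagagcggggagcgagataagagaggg
PTPN14, chr1:214551785-214551814, minus strand: cctcccgggccgCATTCCtccccgcccccg
AJUBA, chr14:22976884-22976913, minus strand: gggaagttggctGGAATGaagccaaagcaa
AXL, chr19:41226531-41226560, plus strand: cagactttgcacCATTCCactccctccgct

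The second ANKRD1 stretch and those of PTPN14, AJUBA and AXL lie within the span that GENCODE 29 gives the gene. AJUBA and AXL each have 2 RefSeq starts, and in both genes only the start that lies inside the gene had a match. FJX1 and NT5E had none in these windows. A match describes letters only, and a window without one says nothing about the factor.

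**Figure D1:**
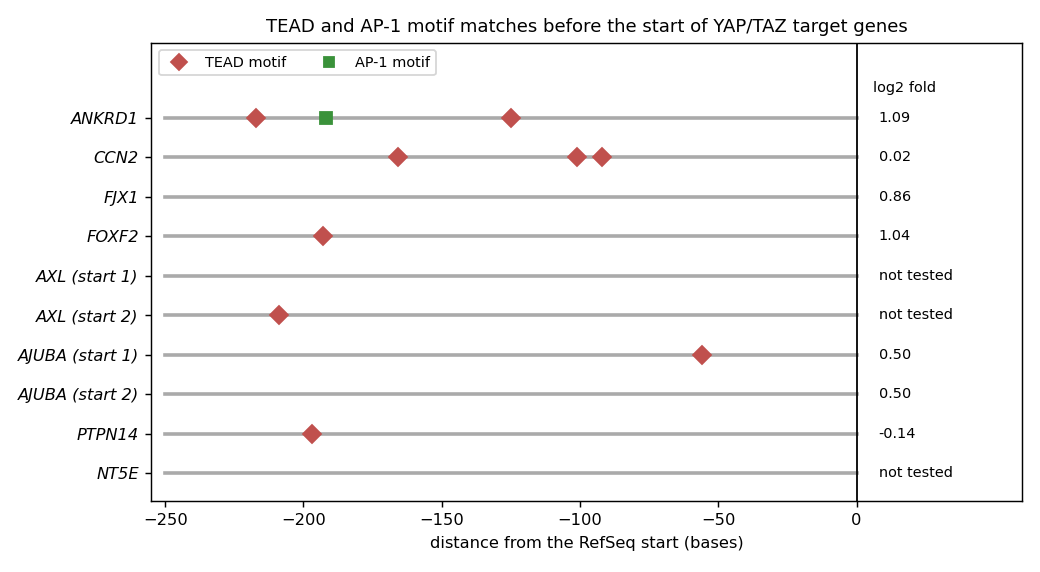
Positions of TEAD (diamonds) and AP-1 (square) motif matches in the 250 bases before each RefSeq start, with distance from the start in bases on the x axis and the gene's log2 fold (ISLR-labelled minus NC-labelled) at the right. Of the tested genes shown, ANKRD1 (log2 fold 1.09), FOXF2 (1.04), AJUBA (0.50), CCN2 (0.02) and PTPN14 (-0.14) have TEAD matches, and FJX1 (0.86) has none. A relation between matches and log2 fold was not tested.

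The members split in the comparison of ISLR-labelled with NC-labelled libraries. ANKRD1, FOXF2, FJX1 and AJUBA were higher in ISLR-labelled libraries as deposited, AJUBA not after scaling between libraries. The 2 CCN genes stood at nearly equal TPM in both groups, and CCN1 was lower after scaling. CRIM1, PTPN14, NT5E and AXL had lower means in ISLR-labelled libraries, and in each of these 4 the groups overlapped. Of the 10 members, 8 reached 1 TPM in at least 3 libraries and were tested, and AXL and NT5E stayed under 1 TPM in all 6. In the limma fit over 13869 tested genes (adjusted p under 0.05), 4 of the 8 tested members were higher and none was lower. Over all tested genes 45.9% were called, 38.5% as higher and 7.38% as lower. The median log2 fold was 0.26 for the 8 members and 0.22 for all tested genes. The 4 called members were also those whose groups did not overlap. The groups were apart for 56.8% of all tested genes, with the ISLR-labelled libraries above in 46.3% and below in 10.5%. The share of members called is thus near that of all genes on the deposited scale. The authors' deposited table has an adjusted p under 0.05 for 6 members (the 4 above, CCN1 and CRIM1), against 51.2% of the genes tested here and 12.7% of all listed genes. The significance mark in the authors' deposited table is set for 0 of the 10 members. Neither the rule behind that mark nor its share over all genes is given here. ANKRD1 goes unmarked although its adjusted p in the authors' deposited table is 2.68e-32. After median-of-ratios scaling, which brings the median over all genes tested to 0.0014 on the log2 scale, 3 members were higher (ANKRD1, FOXF2 and FJX1) and 1 lower (CCN1). On that scale 38.6% of all tested genes were called, 18.2% as higher and 20.4% as lower. The set of genes behind the scaling factors was chosen after a first version had been seen, and both versions call the same 4 members.

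**Figure D2:**
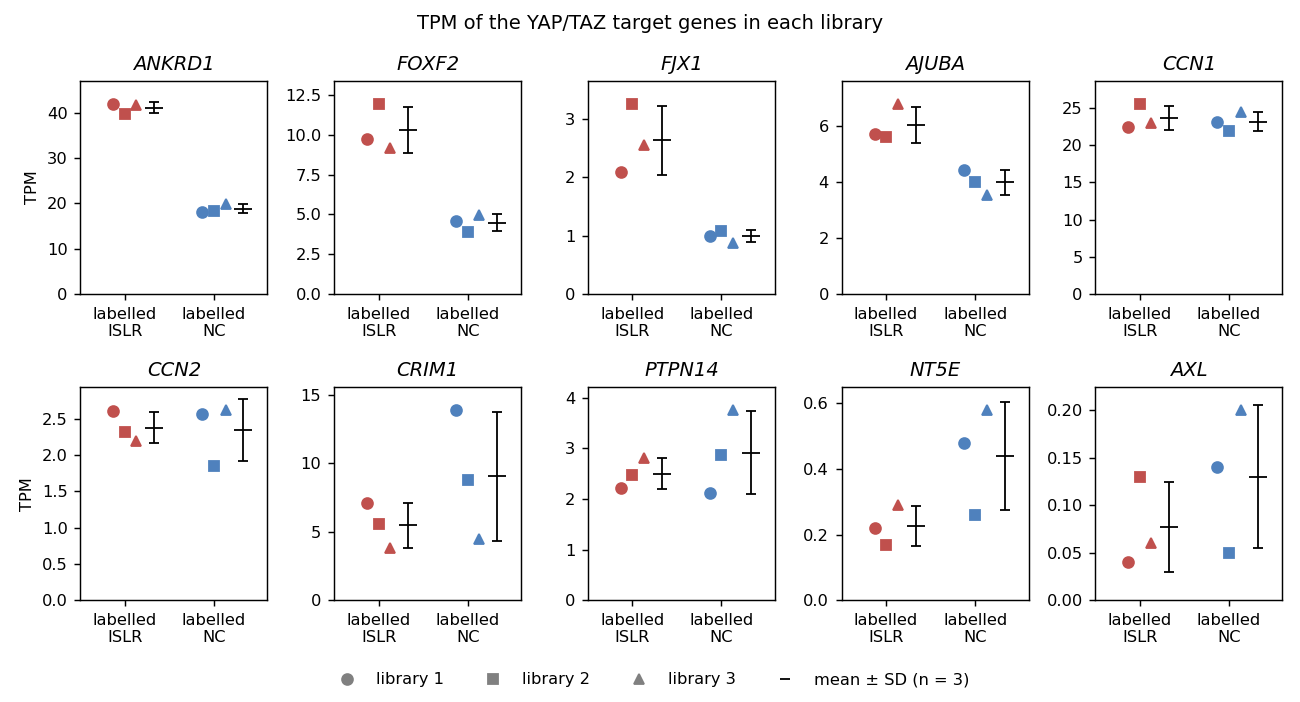
TPM of each of the 10 genes in the 3 ISLR-labelled libraries (red, left) and the 3 NC-labelled ones (blue, right), with the library number as marker shape and mean ± SD (n = 3) in black. The groups are apart for ANKRD1, FOXF2, FJX1 and AJUBA and overlap for the other 6 genes.

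CCN1 and CCN2 encode secreted matricellular proteins of the CCN family, which bind integrins and heparan sulfate. CCN1 (named CYR61 in GENCODE 29, ENSG00000142871.16, chr1:85580761-85583962, plus strand) had 22.42, 25.53 and 22.96 TPM in ISLR-labelled libraries and 23.11, 21.92 and 24.46 TPM in NC-labelled ones. The ranges overlapped, with the highest and the second lowest of the 6 values both in ISLR-labelled libraries. The log2 fold was 0.03 (95% interval -0.14 to 0.20, limma adjusted p = 0.784). Of all tested genes, 30.2% had a lower log2 fold. After scaling, CCN1 was at -0.21 (95% interval -0.37 to -0.05, limma adjusted p = 0.0459). With scaling and 1 library left out, the log2 fold stayed between -0.26 and -0.18, while the limma adjusted p ranged from 0.0310 to 0.133 and passed the threshold in 1 of 6 cases, without ISLR-labelled library 2. In the authors' deposited table CCN1 has an adjusted p of 0.00343, with a mean of 23.6 TPM for ISLR and 23.2 TPM for NC.

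CCN2 (named CTGF in GENCODE 29, ENSG00000118523.5, chr6:131948176-131951373, minus strand) had 2.61, 2.32 and 2.20 TPM in ISLR-labelled libraries and 2.57, 1.85 and 2.62 TPM in NC-labelled ones. All ISLR-labelled values fell inside the range of the NC-labelled ones. Its log2 fold was 0.02 (95% interval -0.31 to 0.35, limma adjusted p = 0.919), and -0.15 after scaling (95% interval -0.48 to 0.17, adjusted p = 0.412). On the deposited scale the interval spans 0.808-fold to 1.27-fold of TPM + 1, so a change of the size seen for ANKRD1 lies outside it, while smaller ones in either direction do not. This gene has the most TEAD matches of the promoters shown above.

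ANKRD1 encodes a cardiac ankyrin repeat protein that acts in the nucleus and at the sarcomere of muscle cells. The gene (ENSG00000148677.6, chr10:90912096-90921276, minus strand) had 41.93, 39.63 and 41.61 TPM in ISLR-labelled libraries and 18.11, 18.38 and 19.95 TPM in NC-labelled ones. Each group was tight, with an SD of 3.03% of the mean in ISLR-labelled libraries and 5.28% in NC-labelled ones, and the groups were far apart. Its mean was 2.18 times as high in ISLR-labelled libraries. The log2 fold was 1.09 (95% interval 0.95 to 1.23, limma adjusted p = 6.6e-05) and 0.85 after scaling (adjusted p = 0.000138). By log2 fold it ranked 258 of 13869 tested genes from the top.

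FOXF2 encodes a forkhead transcription factor of mesenchyme. The gene (ENSG00000137273.5, chr6:1389576-1395603, plus strand) had 9.75, 11.94 and 9.19 TPM in ISLR-labelled libraries and 4.58, 3.91 and 4.94 TPM in NC-labelled ones. The lowest ISLR-labelled value was well above the highest NC-labelled one. The mean was 2.30 times as high, with a log2 fold of 1.04 (95% interval 0.75 to 1.33, limma adjusted p = 0.000819) and 0.82 after scaling (adjusted p = 0.00231). It ranked 311 from the top, close behind ANKRD1.

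FJX1 encodes the human counterpart of Drosophila four-jointed, a Golgi kinase that in the fly phosphorylates the atypical cadherins Fat and Dachsous upstream of Hippo signalling. The gene (ENSG00000179431.6, chr11:35618419-35620868, plus strand) had 2.09, 3.25 and 2.54 TPM in ISLR-labelled libraries and 1.0, 1.08 and 0.88 TPM in NC-labelled ones. The groups did not overlap, and NC-labelled library 3 was the only one under 1 TPM. FJX1 thus passed the filter of 1 TPM in at least 3 libraries only with ISLR-labelled libraries counted. The mean was 2.66 times as high. The log2 fold of TPM + 1 was 0.86 (95% interval 0.50 to 1.22, limma adjusted p = 0.00395), which understates the change of a gene this low, and 0.70 after scaling (adjusted p = 0.00986).

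AJUBA and PTPN14 act back on the pathway: AJUBA is a LIM domain scaffold that inhibits LATS kinases, and PTPN14 is a phosphatase that binds YAP and holds it in the cytoplasm. AJUBA (ENSG00000129474.15, chr14:22971174-22982642, minus strand) had 5.72, 5.62 and 6.80 TPM in ISLR-labelled libraries and 4.44, 4.0 and 3.54 TPM in NC-labelled ones. The groups did not overlap. It was higher as deposited, with a log2 fold of 0.50 (95% interval 0.22 to 0.77, limma adjusted p = 0.0120), but was not called after scaling, at 0.29 (adjusted p = 0.0834).

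PTPN14 (ENSG00000152104.11, chr1:214348696-214552449, minus strand) had 2.21, 2.48 and 2.82 TPM in ISLR-labelled libraries and 2.12, 2.87 and 3.76 TPM in NC-labelled ones. The ISLR-labelled values fell inside the wider range of the NC-labelled ones. The log2 fold was -0.14 (95% interval -0.55 to 0.27, limma adjusted p = 0.534). With a listed length of 13360 nucleotides it is the longest of the 10 members.

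CRIM1, AXL and NT5E encode proteins of the cell surface. CRIM1, a transmembrane protein that binds BMP ligands (ENSG00000150938.9, chr2:36355926-36551135, plus strand), had 7.09, 5.57 and 3.82 TPM in ISLR-labelled libraries and 13.90, 8.78 and 4.47 TPM in NC-labelled ones. The spread within groups was the widest among tested members, with an SD of 29.8% of the mean in ISLR-labelled libraries and 52.2% in NC-labelled ones. Its log2 fold was -0.55 (95% interval -1.49 to 0.40, limma adjusted p = 0.296). The groups overlapped, and this interval holds both a fall and a rise. The value depends on single libraries, at -0.93 without NC-labelled library 3 (limma adjusted p = 0.0407) and -0.20 without NC-labelled library 1 (limma adjusted p = 0.639). In the authors' deposited table its adjusted p is 0.0207.

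NT5E encodes CD73, an ecto-nucleotidase that makes adenosine (ENSG00000135318.11, chr6:85449584-85495791, plus strand). It had 0.22, 0.17 and 0.29 TPM in ISLR-labelled libraries and 0.48, 0.26 and 0.58 TPM in NC-labelled ones. AXL, a receptor tyrosine kinase for GAS6 (ENSG00000167601.11, chr19:41219203-41261766, plus strand), had 0.04, 0.13 and 0.06 TPM in ISLR-labelled libraries and 0.14, 0.05 and 0.20 TPM in NC-labelled ones. Both genes were near 0 throughout, their groups overlapped, and with unknown depth no floor can be set. With no filter on low values, limma gave adjusted p = 0.306 for NT5E and 0.579 for AXL.

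**Figure D3:**
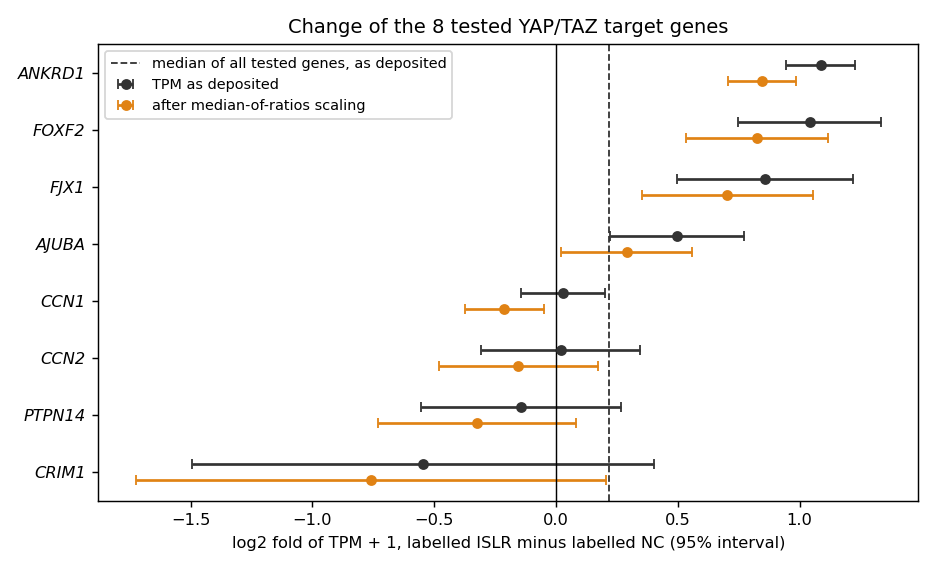
Log2 fold of TPM + 1 (ISLR-labelled minus NC-labelled) with its 95% interval for the 8 tested members, as deposited (black) and after median-of-ratios scaling (orange), with the median of all tested genes at 0.22 as a dashed line. ANKRD1, FOXF2 and FJX1 were called higher on both scales and AJUBA only as deposited, and the CCN1 interval lies under 0 only after scaling.

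Because levels in TPM are corrected for length, the members can be ordered within each group. In the libraries labelled ISLR, ANKRD1 (41.1 ± 1.25 TPM) stood above CCN1 (23.6 ± 1.66 TPM), FOXF2 (10.3 ± 1.45 TPM), AJUBA (6.05 ± 0.654 TPM) and CRIM1 (5.49 ± 1.64 TPM). In the libraries labelled NC, CCN1 (23.2 ± 1.27 TPM) stood above ANKRD1 (18.8 ± 0.994 TPM), CRIM1 (9.05 ± 4.72 TPM), FOXF2 (4.48 ± 0.523 TPM) and AJUBA (3.99 ± 0.45 TPM), each mean ± SD with n = 3. CCN1 and ANKRD1 thus changed places with no overlap between their libraries in either group. The neighbours CRIM1 and FOXF2, FOXF2 and AJUBA, AJUBA and PTPN14, and PTPN14 and CCN2 overlapped in NC-labelled libraries. In ISLR-labelled libraries FOXF2 stood above AJUBA and CRIM1 without overlap, while AJUBA and CRIM1 overlapped. The TPM of the 10 members summed to 94.1, 96.6 and 92.3 in ISLR-labelled libraries and 70.5, 63.1 and 65.4 in NC-labelled ones, and most of that difference was ANKRD1.

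A TPM ratio of 2 genes within a library does not depend on how libraries are scaled to each other. The ANKRD1 to CCN1 ratio of TPM was 1.87, 1.55 and 1.81 in ISLR-labelled libraries and 0.784, 0.839 and 0.816 in NC-labelled ones. The difference in log2 ratio of TPM + 1 was 1.06, and the ratios did not overlap between the groups. With 1 added to each TPM, the log2 differences and their tests keep some dependence on scale. This difference was 1.09 with a pseudocount of 0.1 and 0.93 with a pseudocount of 5. For ANKRD1 to CCN2 the ratio was 17.4 ± 1.44 in ISLR-labelled libraries and 8.20 ± 1.53 in NC-labelled ones (SD, n = 3 each), a log2 difference of 1.07, also without overlap. CCN1 to CCN2 had a ratio of 10.0 ± 1.26 in ISLR-labelled libraries and 10.1 ± 1.56 in NC-labelled ones, a log2 difference of 0.0077, with overlap. Exact two-sided permutation tests over samples gave p = 0.1, 0.1 and 1, and 0.15, 0.15 and 1 adjusted over the 3 ratios. A p of 0.1 is the smallest that 3 libraries against 3 can give, so these tests cannot pass the threshold.

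**Figure D4:**
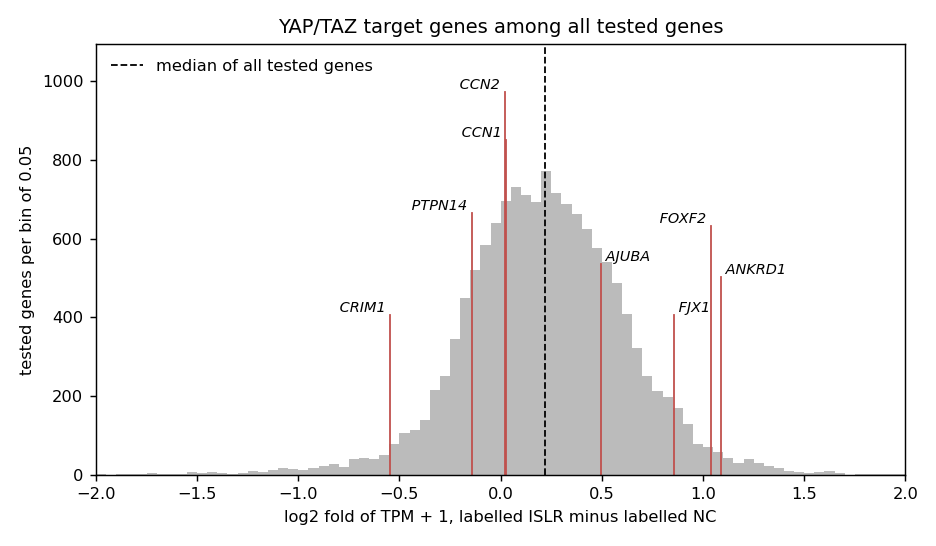
Histogram of the log2 folds of TPM + 1 (ISLR-labelled minus NC-labelled) of the tested genes in bins of 0.05, with the 8 tested members as red lines (their heights carry no value) and the median of 0.22 dashed; 26 genes beyond 2 in size are not drawn. ANKRD1 and FOXF2 lie in the upper tail, CRIM1 in the lower tail, and CCN1 and CCN2 under the median.

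Of 19 other reported YAP/TAZ targets, 11 were tested, and 5 were called higher and 1 was called lower, with a median log2 fold of 0.37 against 0.22 for all tested genes. Together 54.5% of the 11 were called, against 45.9% of all tested genes. After scaling, 3 were higher and 2 lower (GADD45A and BIRC5), against 18.2% and 20.4% of all tested genes. BIRC5 had a log2 fold of -0.33 after scaling, but -0.08 after quantile normalization (limma adjusted p = 0.249) and -0.08 with the expression trend removed (limma adjusted p = 0.277), where it was not called. ARHGEF17, a guanine nucleotide exchange factor, had 2.55, 3.24 and 2.88 TPM in ISLR-labelled libraries and 1.98, 1.34 and 1.25 TPM in NC-labelled ones (log2 fold 0.63, limma adjusted p = 0.0134). ARHGAP29, a GTPase-activating protein, had 3.06, 2.94 and 3.07 TPM in ISLR-labelled libraries and 1.95, 1.52 and 1.47 TPM in NC-labelled libraries (0.61, limma adjusted p = 0.00612). AMOTL2, an angiomotin that binds YAP, had 4.10, 4.15 and 3.98 TPM in ISLR-labelled libraries and 2.50, 2.62 and 2.59 TPM in NC-labelled ones (0.51, limma adjusted p = 0.00513). After scaling these 3 genes were higher too, with limma adjusted p = 0.0481, 0.0271 and 0.0371. None of the 3 was called after quantile normalization (limma adjusted p = 0.0910, 0.0610 and 0.103) or once a length or expression trend was also removed. The authors' deposited table has an adjusted p under 0.05 for 7 of the 19 targets (by group mean TPM, 5 higher and 2 lower). The shares there were 51.2% of the genes tested here and 12.7% of all listed genes. AMOTL2, with an adjusted p of 0.894 in that table, is not among the 7. GADD45A, a stress-induced growth arrest gene, was lower on both scales, at 455.8 ± 23.5 TPM in ISLR-labelled libraries and 576.4 ± 9.4 TPM in NC-labelled ones (SD, n = 3 each). The 8 untested targets, which include THBS1, AREG and EDN1, were under 1 TPM in at least 5 of the 6 libraries.

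**Figure D5:**
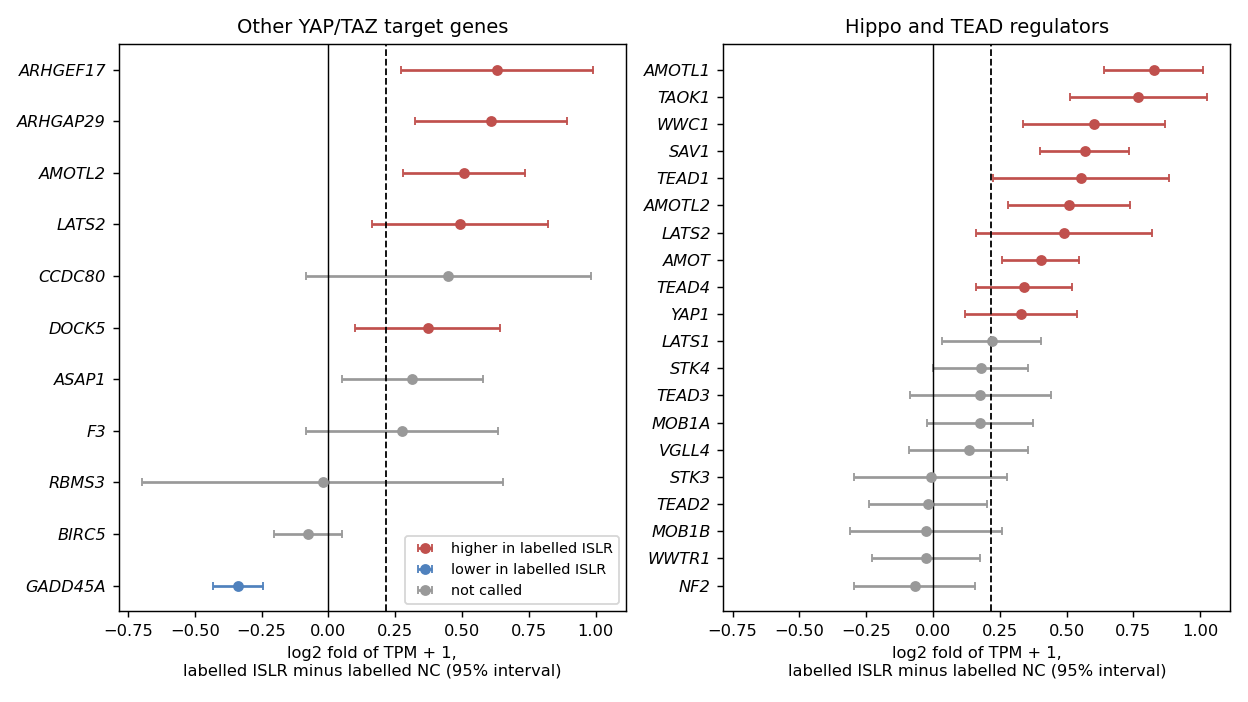
Log2 fold of TPM + 1 (ISLR-labelled minus NC-labelled) with its 95% interval for 11 other YAP/TAZ targets (left) and 20 Hippo and TEAD regulators (right), red where higher, blue where lower and grey where not called, as deposited; the dashed line is the median of all tested genes, 0.22. AMOTL2 and LATS2 are in both lists, and GADD45A is the only gene called lower as deposited, joined by BIRC5, NF2 and WWTR1 after scaling.

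All 20 regulators of the pathway were tested, and 10 were higher and none lower as deposited, with a median log2 fold of 0.27 against 0.22 for all tested genes. The share called, 50%, is near the 45.9% of all tested genes. After scaling, 5 were higher (AMOTL1, SAV1, TAOK1, WWC1 and AMOTL2) and 2 lower (NF2 and WWTR1), against 18.2% and 20.4% of all tested genes. AMOTL1, SAV1, TAOK1, NF2 and WWTR1 kept a call in the same direction under quantile normalization and under removal of the length or expression trend from scaled values. WWC1 was not, with limma adjusted p = 0.0653, 0.0776 and 0.0784, and neither was AMOTL2. AMOTL1, an angiomotin that binds YAP, had 10.58, 10.67 and 11.40 TPM in ISLR-labelled libraries and 5.93, 5.59 and 5.59 TPM in NC-labelled ones (log2 fold 0.83, limma adjusted p = 0.000387). TAOK1, a kinase upstream of MST, had a log2 fold of 0.77, SAV1, the scaffold of MST, one of 0.57, and AMOT one of 0.40, all called as deposited, AMOT not after scaling. Among the coactivators, YAP1 was at 8.0, 9.17 and 8.76 TPM in ISLR-labelled libraries and 7.11, 6.51 and 6.41 TPM in NC-labelled ones, and its groups did not overlap (log2 fold 0.33, limma adjusted p = 0.0208, and 0.349 after scaling). WWTR1 had 11.4 ± 0.77 TPM in ISLR-labelled libraries and 11.6 ± 0.851 TPM in NC-labelled ones (SD, n = 3 each), with overlap (log2 fold -0.03, and -0.26 after scaling, limma adjusted p = 0.0420). TEAD1 had 4.31 ± 0.774 TPM in ISLR-labelled libraries and 2.60 ± 0.233 TPM in NC-labelled ones (SD, n = 3 each, log2 fold 0.55, limma adjusted p = 0.0160). TEAD4, the most abundant TEAD gene, had 26.7 ± 1.5 TPM in ISLR-labelled libraries and 20.9 ± 1.6 TPM in NC-labelled ones (0.34, limma adjusted p = 0.00972). Neither TEAD1 nor TEAD4 was called after scaling (limma adjusted p = 0.0685 and 0.349), and TEAD2 and TEAD3 were not called on either scale. TEAD2 was called lower after quantile normalization (limma adjusted p = 0.0474) and with the expression trend removed (limma adjusted p = 0.0381). The authors' deposited table has an adjusted p under 0.05 for 7 regulators, against 51.2% of the genes tested here. Directions were read from group mean TPM, with 5 higher and 2 lower in ISLR-labelled libraries. TEAD4 (0.814), YAP1 (0.877), AMOTL2 (0.894), AMOT (0.1085) and WWC1 (0.05575), called higher here as deposited, are not among those 7.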

How the data were processed

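The deposited table gives TPM per gene and library, made by the authors, with their mean TPM per group and the p-value and adjusted p-value of their own comparison, for which DESeq2 is named in the name of the deposited table. HISAT2, Cufflinks, RSEM and the build GRCh38.p10 are named without roles, per the submitters' processing notes; the sources used here do not say whether strand was used. After 1 blank row was left out, 58884 genes remained. Library columns were matched to samples by title. Genes at 1 TPM or more in at least 3 libraries (13869) were tested on log2(TPM + 1) with limma 3.58.1 (trend and robust, group as the only term, two-sided, Benjamini-Hochberg adjusted p under 0.05 over all tested genes) in R 4.3.3, and the fit was tested on simulated data. Scaling used the median of ratios over 13668 tested genes above 0 in all libraries; factors from all 17741 genes above 0 were run first and replaced after their output was seen. Because TPM keeps no depth, no count test was run. The 10 members, the lists (19 other targets, 20 regulators, cell type markers) and the rule for named genes (all members, ISLR, the 4 genes of a list with the smallest p-value and those called lower, YAP1, WWTR1, TEAD1 to TEAD4) were chosen with earlier results of these data known. BIRC5, NF2, WWC1, LATS2, CD3E, HBB, THY1, COL1A1, VIM, THBS1, AREG and EDN1 were named after their values were seen. Gene positions are from GENCODE 29 (GRCh38), and promoters from RefSeq (GRCh38.p14). Alternatives were other pseudocounts, filters and normalizations, trend removal (lowess, span 0.3), a replicate block and each library left out. An adjusted p under 0.01 and the authors' deposited comparison were counted as alternatives too. Python 3.11.15, scipy 1.17.1 and matplotlib 3.10.9 were used for tables, permutation tests and figures.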

Additional observations from a re-analysis of the deposited data

How the results depend on the processing

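ANKRD1, FOXF2 and FJX1 stayed higher and past the threshold under each alternative (25, 25 and 24, since FJX1 did not pass the filter of 5 TPM). Their log2 folds ran from 0.82 to 1.13, 0.69 to 1.2 and 0.35 to 1.41. The authors' deposited comparison is among these alternatives. Its value is a log2 ratio of mean TPM without a pseudocount, and it gives the upper ends for FOXF2 and FJX1. FOXF2 and AJUBA passed the filter of 5 TPM only through their ISLR-labelled libraries, with every NC-labelled value under 5 TPM. For these genes the setting adds no support. Members called numbered 3 to 6, against 4. AJUBA lost its call under 12 of 25 alternatives, those that rescale the libraries and an adjusted p under 0.01. CCN1 turned to -0.21 with median-of-ratios scaling, -0.20 with quantile normalization, -0.18 and -0.21 with scaling and removal of the length or expression trend. CCN2 turned to -0.15, -0.23, -0.12 and -0.28 in that order. Scaling was first run with factors from all genes above 0 and changed after its output was seen. That version gave -0.23 for CCN1 (limma adjusted p = 0.0367), -0.16 for CCN2, and 2380 higher and 2958 lower genes, against 2521 and 2827. With 1 library left out, with or without scaling (the scaled fits chosen after seeing the data), log2 folds ran from -0.26 to 0.066 for CCN1, -0.27 to 0.080 for CCN2 and -0.48 to 0.0081 for PTPN14. The log2 ratio of CCN1 to CCN2 differed by -0.0022 with a pseudocount of 0.1 and by -0.058 to 0.092 with 1 library left out. At an adjusted p under 0.01, 3883 genes were called, against 6370, and 3 other targets. Other targets called numbered 1 with a filter of 5 TPM, 1 with quantile normalization, 2 with the length trend removed and 1 with the expression trend removed, all of them lower, against 5 higher and 1 lower. Regulators numbered 6 (all higher), 6 (3 higher, 3 lower), 5 (3 higher, 2 lower) and 6 (3 higher, 3 lower), against 10 higher. Over all 13869 tested genes, 2454 were higher and 2111 lower with quantile normalization. These counts were 2277 and 2833 with the length trend removed, and 2338 and 2282 with the expression trend removed. With the filter of 5 TPM, 4270 genes were higher and 976 lower. The other targets called higher as deposited (AMOTL2, LATS2, ARHGEF17, ARHGAP29 and DOCK5) were under 5 TPM in every library, so they were not tested there. Of the regulators called higher as deposited, LATS2, AMOTL2, TEAD1 and TAOK1 did not pass that filter. The genes of each list that passed it were not counted. The causes of these changes in count were not tested, beyond fewer genes passing the stricter filter. Same-numbered libraries did not deviate together over all tested genes (correlations 0.020, 0.047 and -0.056). With 3 libraries per group this cannot exclude a pairing, and the titles name none. With the replicate block 5778 genes were called, and CRIM1 was called lower (-0.55, limma adjusted p = 0.0468). Depth is unknown, so the counting error of AXL and NT5E near 0 cannot be given.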
